A study of Pararge aegeria with 4 samples.

Results

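The miR-2 and miR-13 family was examined in small RNA from the ovary of the Speckled Wood butterfly, Pararge aegeria. Members were taken by name, as every listed miRNA called miR-2 or miR-13 with at most 1 letter after the number. Under that rule 5 of the 90 miRNAs listed in either library belonged to the family, namely Pae-miR-2a, Pae-miR-2b, Pae-miR-2c, Pae-miR-13a and Pae-miR-13b, written below without the species prefix. Of these, 4 were among the 67 miRNAs listed for St Hubert and 5 among the 81 listed for Zonza, and 4 of the 58 miRNAs listed in both libraries were members.

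The study sequenced ovaries of butterflies from St Hubert in Belgium and from Zonza on Corsica. Both groups came from laboratory-reared populations, with no genetic change or drug treatment, and differed in how long they had been kept as stocks. Ovaries of a pair of mated females per population, dissected at the peak of egg production and cleared of fat, gave 1 small RNA library and 1 mRNA library each. With 1 library per population there was no replicate, so a difference between St Hubert and Zonza is a difference between these libraries, and every interval given is a 95% interval that covers counting error only. In bulk ovary, fewer cells of a type and less miRNA per cell cannot be told apart.

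MicroRNAs are short RNAs cut as a pair of products, the 5p and the 3p arm, from the opposite sides of a hairpin precursor. The seed, bases 2 to 8 of a mature product, does most of the pairing to target mRNAs. miR-2 and miR-13 form a large invertebrate family whose 3p products carry the seed that pairs with the K box, a short motif in mRNAs first described for Notch target genes in Drosophila. In Drosophila the family also represses the cell death genes reaper, grim and sickle, and in the cockroach Blattella germanica it clears the mRNA of Kr-h1, a repressor of metamorphosis that acts downstream of juvenile hormone.

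The 3p products of the family are shown first because they define it. Each is written 5′ to 3′ from the deposited table, with the seed in capitals, together with the 3p products of miR-11 and miR-308, the only other listed miRNAs with the seed of miR-2b.
miR-2a-3p: uCACAGCCagcuuugaugagca
miR-2b-3p: uAUCACAGccagcuuugaugagcg
miR-2c-3p: uAUCACAGccagcuuuguugacu
miR-13a-3p: uAUCACAGccacuuugaugugg
miR-13b-3p: uAUCACAGccauuuuugacgaguu
miR-11-3p: cAUCACAGucagaguucuagcu
miR-308-3p: aAUCACAGgauaauacugcgag

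The 3p products of miR-2b, miR-2c, miR-13a and miR-13b shared 1 seed. Including miR-11 and miR-308, 6 of 176 listed mature products of both arms, 3.41%, carried it. The exception was miR-2a, whose deposited 3p product began 2 bases later, so that bases 2 to 8 read differently and matched no other product. The 2 bases just before the product in its precursor were u and a, the bases with which the other members' products began. The depth behind the start of individual reads was not in the tables used here, so the share of miR-2a reads that began at either base is not analysed here.

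The 5p products are shown because they held most of the reads of several members. The capitals again mark bases 2 to 8.
miR-2a-5p: cCAUCAAAgucgguuugucaua
miR-2b-5p: cUCACAAAgugguuguguuaug
miR-2c-5p: cCGAUAAAgugguugugacgug
miR-13a-5p: cUGUCAAAgcggcaugugacaug
miR-13b-5p: uCGUAAAAauaguugugcaaug

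These 5 seeds differed from each other, and no listed product outside the family carried any of them. Over the 10 pairs of members, the 3p products were identical at 70.8% to 87.5% of aligned positions (median 78.7%). The 5p products were less alike, at 54.5% to 75.0% (median 68.1%), and the whole precursors were identical at 52.7% to 60.9%. The members therefore shared most sequence on the 3p arm, with runs of 9 to 21 identical bases against 4 to 12 on the 5p arm.

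The closest pair was miR-2a and miR-2b, and their precursors are shown because a read could fall on both. Capitals mark the 5p and the 3p product in each.
miR-2a precursor: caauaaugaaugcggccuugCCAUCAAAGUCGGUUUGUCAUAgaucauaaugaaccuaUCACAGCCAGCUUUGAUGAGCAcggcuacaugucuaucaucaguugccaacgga
miR-2b precursor: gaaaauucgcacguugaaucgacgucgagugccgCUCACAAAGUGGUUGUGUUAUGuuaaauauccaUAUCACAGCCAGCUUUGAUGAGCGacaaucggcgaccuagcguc

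Both precursors held the same run of 23 bases, which no other listed precursor held.
shared run: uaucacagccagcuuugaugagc
It spans the whole 3p product of miR-2b but for its last base, and that of miR-2a but for its last base. The next closest pair of 3p products, miR-2b and miR-2c, shared 17 bases. No product of the family was identical in full to a product of another listed miRNA.

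The precursors were 111 to 114 bases long, and folded with minimum free energies of -34.2 kcal/mol for miR-2a, -43.2 for miR-2b, -36.1 for miR-2c, -34.1 for miR-13a and -37.2 for miR-13b. In all 5 folds the products were offset by 2 bases at the loop end, the stagger that the RNase III enzyme Dicer leaves. At the base of the hairpin the offset was 2 bases in miR-2a and miR-2b, 1 in miR-13a and 3 in miR-13b, and in miR-2c the 5p product started at an unpaired base. The 5p product started at base 21 in miR-2a, miR-2c and miR-13a, but at base 35 in miR-2b and at base 38 in miR-13b.

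**Figure D1:**
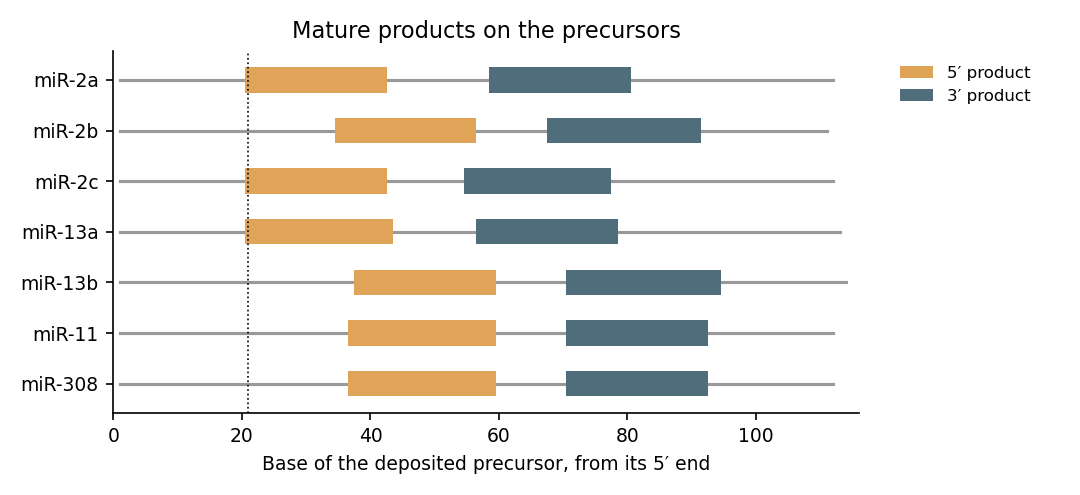
Mature products along the deposited precursors of the 5 members and of miR-11 and miR-308, in bases from the 5′ end, with the 5p product in orange and the 3p product in blue. The dotted line marks base 21, where the 5p product starts in miR-2a, miR-2c and miR-13a, while in the other 4 precursors it starts at bases 35 to 38.

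The start position in the deposited precursors went with the arm with more reads among all listed miRNAs. In St Hubert the 5p product started at base 21 in 23 of 30 miRNAs with more 5p reads and in 2 of 36 with more 3p reads. In Zonza the counts were 26 of 30 and 4 of 48. Base 21 was thus the usual start among miRNAs with more 5p reads, inside and outside the family. The start is counted from the end of the deposited precursor, so it depends on where that precursor was cut. In miR-2b and miR-13b, with more 3p reads, the 3p product ended at base 91 of 111 and 94 of 114. How the precursors were cut was not tested, and no property of the hairpins is read from the start position.

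The St Hubert library held 373413 miRNA reads and the Zonza library 1049925, so counting error was smaller in Zonza. miR-989, an abundant ovarian miRNA, took 77.2% of all reads for St Hubert and 83.2% for Zonza, so the summed share of the other miRNAs was smaller in Zonza. The ovary label was met by vasa, nanos and the vitellogenin receptor gene yolkless, with 82.2, 910 and 265 FPKM in St Hubert and 67.9, 686 and 155 FPKM in Zonza, and by 17 chorion contigs summing to 2960 and 10549 FPKM. Markers of other tissues were present in both groups. The muscle miRNA miR-1 made up 5.66% of all reads for St Hubert and 2.56% for Zonza, while miR-133 was listed in neither, myosin heavy chain had 57.9 and 46.6 FPKM, and 8 troponin contigs summed to 145 and 104 FPKM. miR-124, of the nervous system, was listed only in Zonza, with 23 reads, and the fat body genes were at 2522 and 4807 FPKM for vitellogenin, 319 and 2086 for apolipophorin and 1.83 and 0.22 for arylphorin. The part of these markers in the family's values below was not tested.

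The family as a whole was a small part of the miRNA reads. The 4 members found in both libraries had 257 reads in St Hubert, or 688 RPM (reads scaled to 1000000 miRNA reads per library, interval 609 to 778), and 734 reads in Zonza, 699 RPM (650 to 752). With miR-13b the Zonza sum was 776 reads, or 739 RPM. The family thus made up 0.0688% of miRNA reads for St Hubert and 0.0699% for Zonza with the same 4 members.

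miR-2a was the most abundant member in both libraries. It had 111 reads in St Hubert, 297 RPM (247 to 358), and stood at rank 35 of 67 by total reads, between Par-247 with 125 reads and B-0210/C-0160 with 97, both numbered entries of P. aegeria. In Zonza it had 424 reads, 404 RPM (367 to 444), at rank 30 of 81, between miR-92a with 426 reads and C-0149 with 378. The Zonza value was higher, and the intervals did not overlap.

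miR-2c came next in both libraries, with 71 reads in St Hubert, 190 RPM (151 to 240), and 162 reads in Zonza, 154 RPM (132 to 180). It stood at rank 44 in St Hubert, between miR-8 with 78 reads and Par-080 with 70, and at rank 38 in Zonza, between Par-080 with 171 and Par-247 with 146. Its intervals overlapped between the libraries.

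miR-13a had 38 reads in St Hubert, 102 RPM (74.1 to 140), at rank 59, with miR-7 at 44 reads just above and Par-104 at the same count. In Zonza it had 88 reads, 83.8 RPM (68.0 to 103), at rank 52, between Par-099 with 91 reads and Par-104 with 73. These intervals also overlapped.

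miR-2b had 37 reads in St Hubert, 99.1 RPM (71.9 to 137), at rank 61, between Par-104 with 38 reads and miR-965 with 32. In Zonza it had 60 reads, 57.1 RPM (44.4 to 73.6), at rank 58, with miR-87 at 63 reads above and Par-146 at the same count. The value was lower in Zonza, and the intervals overlapped only between 71.9 and 73.6 RPM.

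miR-13b was listed only in Zonza, with 42 reads, 40.0 RPM (29.6 to 54.1), at rank 64, between miR-7 with 43 reads and miR-2765 at the same count. At that share the St Hubert library would hold 14.9 reads, and the lowest total listed for St Hubert was 19 reads. A level in St Hubert equal to that in Zonza would therefore lie below every total in the St Hubert table, and no difference between the libraries is read from its absence there.

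**Figure D2:**
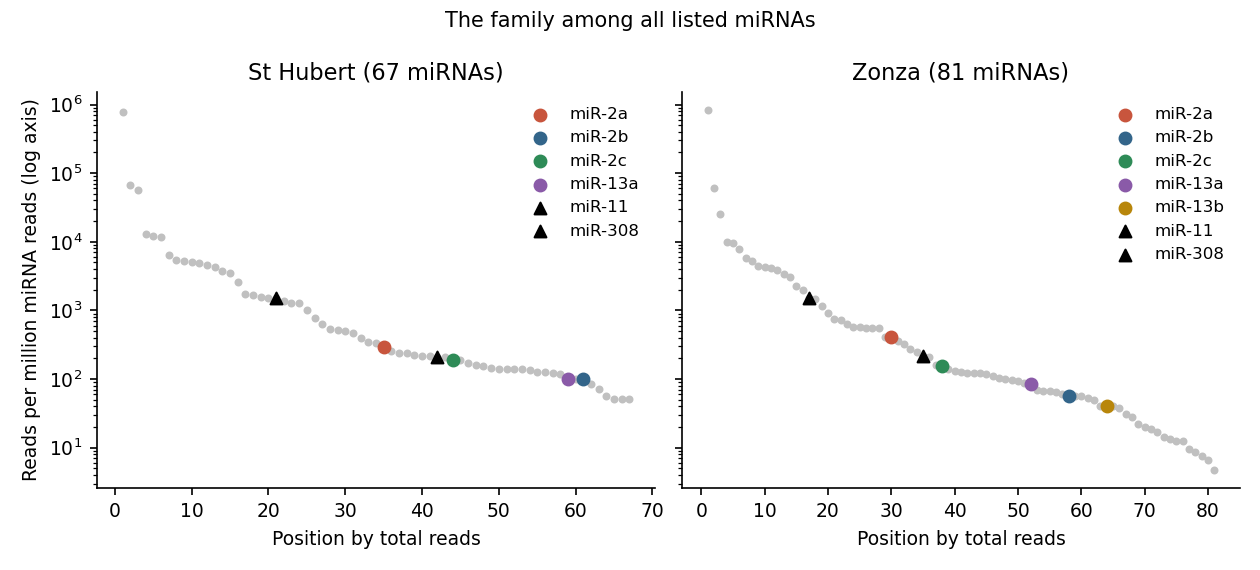
RPM (log axis) of every listed miRNA, ordered by total reads in each library, with the family as coloured circles and miR-308 (upper) and miR-11 (lower) as black triangles. The family lies in the middle and lower part of both orders, from rank 35 to 61 in St Hubert and from rank 30 to 64 in Zonza.

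The order of the members by reads was the same in both libraries. In St Hubert there were 1.56 reads of miR-2a per read of miR-2c (1.16 to 2.11) and 1.87 of miR-2c per read of miR-13a (1.26 to 2.77), while miR-13a and miR-2b differed by a single read, a ratio of 1.03 (0.653 to 1.62). In Zonza the ratio was 2.62 for miR-2a over miR-2c (2.18 to 3.14), 1.84 for miR-2c over miR-13a (1.42 to 2.39) and 1.47 for miR-13a over miR-2b (1.06 to 2.04). The lowest Zonza neighbours, miR-2b and miR-13b, had a ratio of 1.43 (0.963 to 2.12), which was not resolved by counting error, as was the case for miR-13a and miR-2b in St Hubert.

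**Figure D3:**
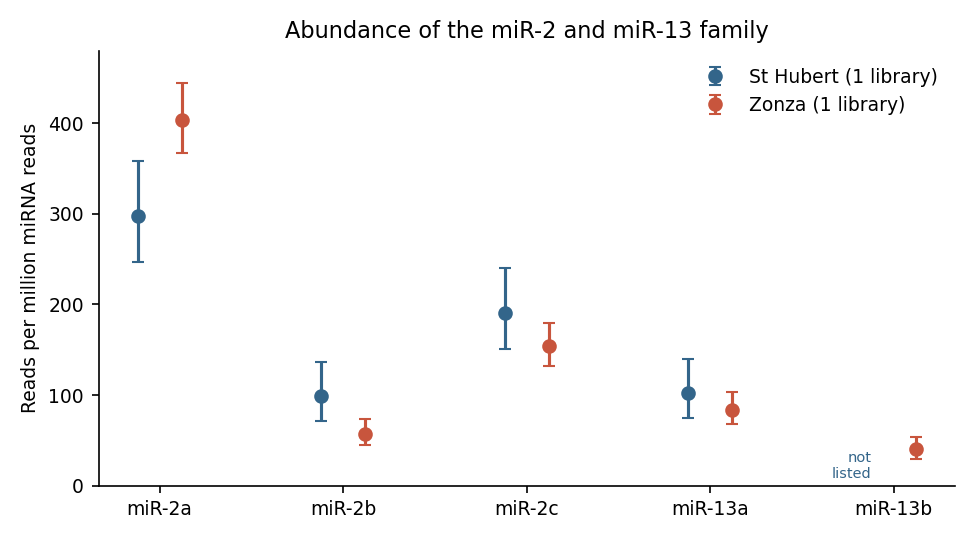
RPM of each member in the St Hubert and the Zonza library, 1 library each, with points for the value and bars for the 95% Wilson interval of counting error. miR-2a is highest in both libraries, at 297 and 404 RPM, and miR-13b is listed only in Zonza, at 40.0 RPM.

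The make-up of the family differed between the libraries. miR-2a made up 43.2% of the reads of the 4 shared members in St Hubert (37.3 to 49.3) and 57.8% in Zonza (54.2 to 61.3). The share of miR-2b was 14.4% (10.6 to 19.2) in St Hubert and 8.17% (6.40 to 10.4) in Zonza. Both shares depend on how reads on the run that miR-2a and miR-2b share were assigned, which is not known. For miR-2c the shares were 27.6% and 22.1%, and for miR-13a 14.8% and 12.0%, with overlapping intervals.

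Ratios between members do not depend on how the libraries are scaled. There were 3.0 reads of miR-2a for each read of miR-2b in St Hubert and 7.07 in Zonza, a change of 2.36 times (1.49 to 3.73). Every miR-2b read was on the 3p arm, in sequence largely shared with miR-2a, so this change also depends on that assignment. Against miR-2c the ratio of miR-2a was 1.56 in St Hubert and 2.62 in Zonza, a change of 1.67 times (1.18 to 2.37), and against miR-13a it was 2.92 and 4.82, a change of 1.65 times (1.07 to 2.55). All 3 pairs with miR-2a thus moved the same way beyond counting error, though they share the miR-2a counts.

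In the other 3 pairs the interval of the change included 1. The ratio of miR-2b to miR-2c changed 0.711 times (0.433 to 1.17), that of miR-2b to miR-13a 0.700 times (0.400 to 1.22) and that of miR-2c to miR-13a 0.985 times (0.615 to 1.58). The last pair changed least, at 1.87 reads of miR-2c per read of miR-13a in St Hubert and 1.84 in Zonza.

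The shares of each member were next set between the libraries as ratios, Zonza over St Hubert. None of the 4 members reached 2-fold, against 24.1% of the 58 miRNAs listed in both libraries, of which 3.45% were at least 2-fold higher and 20.7% at least 2-fold lower in Zonza. At 1.5-fold the count was 1 of 4, miR-2b, against 44.8%. The summed family had a ratio of 1.02 (0.880 to 1.18). Its 5p reads alone gave 1.02 (0.853 to 1.22) and its 3p reads alone 1.01 (0.791 to 1.30).

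This even sum was made of unlike members. miR-2a had a ratio of 1.36 (1.10 to 1.69), the 5th highest of 58, and miR-2b one of 0.577 (0.377 to 0.894), at place 42. The intervals of miR-2a and miR-2b excluded 1, as did those of 70.7% of all 58 miRNAs, 13.8% above 1 and 56.9% below. The 5p reads of miR-2a alone, which lie outside the run shared with miR-2b, gave 1.37 (1.05 to 1.80). The ratio of miR-2b rests on reads in that run. miR-2c had a ratio of 0.811 (0.610 to 1.09) and miR-13a one of 0.824 (0.557 to 1.24), which were not distinguishable from 1 by counting error. Without miR-2a the other 3 members summed to a ratio of 0.755 (0.618 to 0.926), against 1.02 with it.

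The median ratio of all 58 miRNAs was 0.772, a shift of -0.37 on the log2 scale, with miR-989 at a higher share in Zonza. Relative to this median, miR-2a was 1.76 times as high in Zonza, miR-2b 0.747 times, miR-2c 1.05 times and miR-13a 1.07 times. Scaling on totals without miR-989 gave 1.85 for miR-2a, 0.786 for miR-2b, 1.11 for miR-2c and 1.12 for miR-13a. TMM factors, which trim extreme miRNAs, gave 1.82, 0.773, 1.09 and 1.10, and median-of-ratios size factors gave 1.76, 0.747, 1.05 and 1.07. With 1 library per population, size factors are nearly the same computation as dividing by the median ratio, so they repeat those values. The direction was thus the same under every scaling for miR-2a and miR-2b, while miR-2c and miR-13a were below 1 on all miRNA reads and above 1 under these 3 scalings. The interval of miR-2b included 1 under those 3 scalings, and that of miR-2a did not.

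The sum of the 4 members was 1.38 without miR-989, 1.36 with TMM factors and 1.32 with size factors, all with intervals above 1. The split of all miRNAs past 2-fold also turned with scaling, from 2 higher and 12 lower in Zonza on all miRNA reads to 3 higher and 2 lower under each of the 3 scalings.

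**Figure D4:**
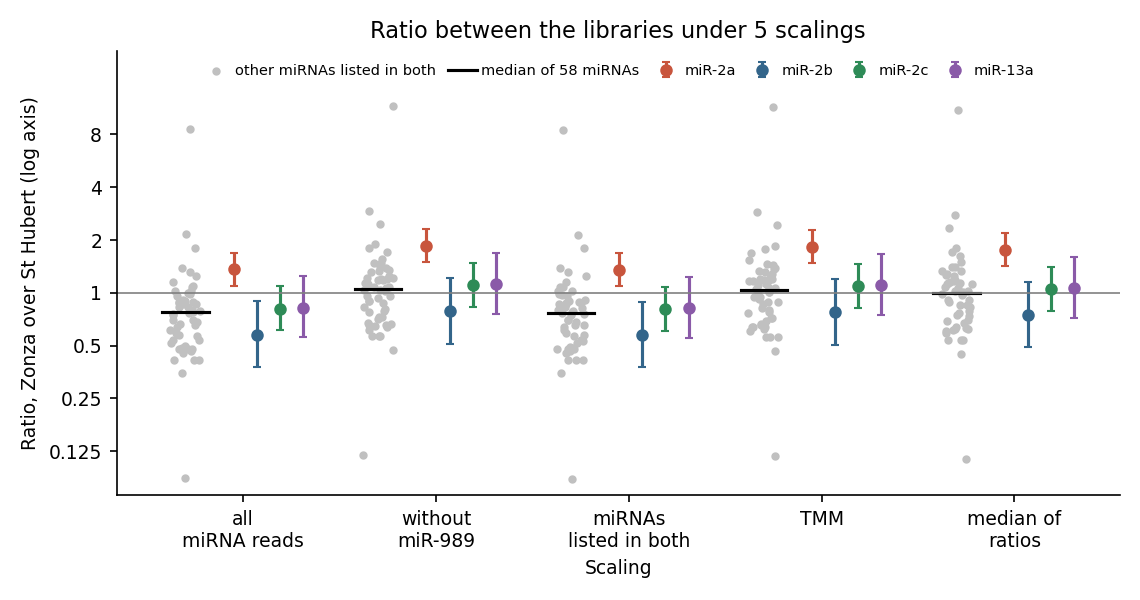
Ratio of each member between the libraries (Zonza over St Hubert, log axis) under 5 scalings, with 95% counting intervals, beside the other miRNAs listed in both libraries (grey) and the median of all 58 (black line). miR-2a lies above 1 under every scaling, from 1.36 to 1.85, and miR-2b below 1, from 0.575 to 0.786, while miR-2c and miR-13a cross 1.

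The miRNAs nearest to the summed family by this ratio, of 54 others, were miR-11 at 1.02 (0.788 to 1.34), Par-017 at 1.03 (0.975 to 1.08) and miR-308 at 0.993 (0.902 to 1.09). The likeness rests on 2 libraries. Their log2 ratios lay 0.01, 0.02 and 0.03 from that of the family, far less than the counting error of the family itself.

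Arm use divided the family. miR-2a, miR-2c and miR-13a had more 5p than 3p reads in both libraries, whereas miR-2b and miR-13b were read almost entirely from the 3p arm. Of the 58 miRNAs listed in both libraries 25 had more 5p reads in both, 43.1%, against 3 of the 4 members, and 56 of 58 kept their dominant arm.

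miR-2a had 71 5p and 40 3p reads in St Hubert and 273 and 151 in Zonza, so that the 3p arm held 36.0% (27.7 to 45.3) and 35.6% (31.2 to 40.3) of its reads. Such an even use of the arms was uncommon. The minor arm held a median of 1.61% of reads over all miRNAs in St Hubert and 1.56% in Zonza, and miR-2a stood 7th from the top by that share in both.

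miR-2c had 63 5p and 8 3p reads in St Hubert and 131 and 31 in Zonza, a 3p share of 11.3% (5.82 to 20.7) and 19.1% (13.8 to 25.9). miR-13a had 32 and 6 reads in St Hubert and 72 and 16 in Zonza, a 3p share of 15.8% (7.44 to 30.4) and 18.2% (11.5 to 27.5). Both were therefore 5p-dominant with a minor arm above 10%. A minor arm above 10%, whichever arm dominated, was found in 34.3% of the miRNAs listed in St Hubert and 29.6% of those in Zonza.

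miR-2b had no 5p read in either library, 0 of 37 in St Hubert, which allows a 5p share of up to 8.11%, and 0 of 60 in Zonza, which allows up to 5.0%. miR-13b had 1 5p and 41 3p reads in Zonza, a 3p share of 97.6% (87.7 to 99.6). In these 2 members the seed shared by the family lies on the arm with the reads, and in miR-2c and miR-13a on the arm with fewer reads.

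**Figure D5:**
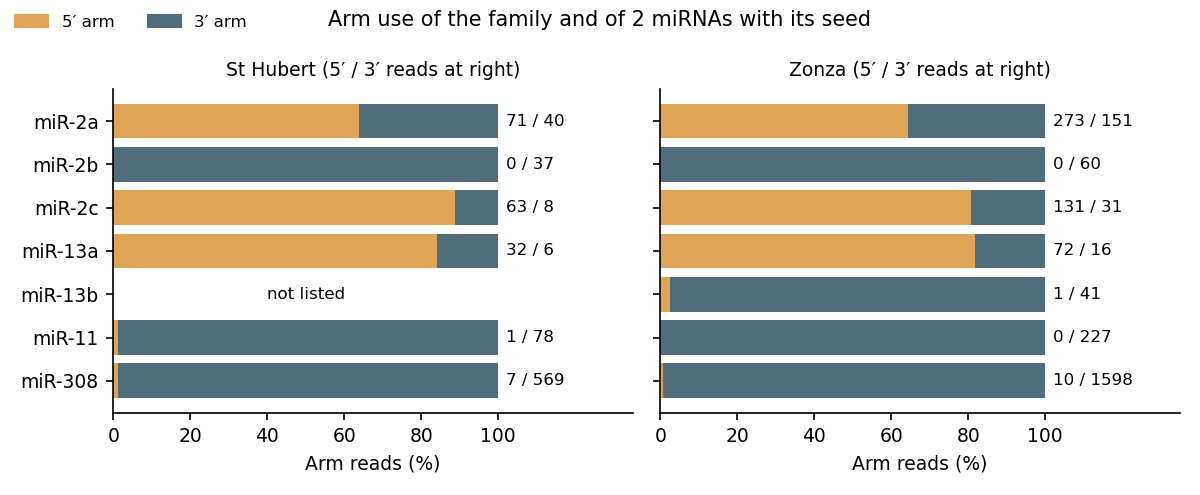
Share of 5p (orange) and 3p (blue) reads in percent of the arm reads of each member and of miR-11 and miR-308, with the read counts at the right of each bar, for 1 library per population. miR-2a, miR-2c and miR-13a are read mostly from the 5p arm in both libraries, and miR-2b, miR-13b, miR-11 and miR-308 from the 3p arm.

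The arm shares were compared between the libraries by a two-sided Fisher exact test, adjusted by Benjamini-Hochberg over the 58 miRNAs, which compares the reads of these libraries. It called 5.17% of the 58 and none of the 4 members, whose unadjusted p were 0.182 for miR-2c, 0.805 for miR-13a and 1.0 for miR-2a and miR-2b. The 5p share differed by 0.42 percentage points in miR-2a, higher in Zonza, with an interval from -9.12 to 10.7. In miR-2c it was lower in Zonza by 7.87 points, with an interval of the difference from -16.5 to 2.95 (adjusted p = 0.779 by the Fisher exact test). In miR-13a the interval ran from -14.9 to 13.7. A difference in arm use was not detectable in any member at this depth.

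The 3p reads of miR-2a and miR-2b rest on sequence that both precursors share. If the 3p reads listed for miR-2b also belonged to miR-2a, the 3p share of miR-2a would be 52.0% (44.0 to 59.9) in St Hubert and 43.6% (39.2 to 48.0) in Zonza, and in St Hubert its dominant arm would turn to 3p. The counts of miR-2a and miR-2b alone do not show how reads within the shared run were assigned, so the 3p counts of this pair are uncertain. Par-340 and Par-341 had identical counts, each with 51 5p and 1 3p reads in St Hubert and 69 and 1 in Zonza. The paper groups these entries because they share reads on an arm. Whether the 3p reads of miR-2b were already counted for miR-2a too was not tested. If they were, the family sums would hold up to 37 reads in St Hubert and 60 in Zonza counted for both members. The 5p counts of miR-2a shared no more than 6 bases in a row with any other member.

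Since miR-11 and miR-308 carry the same seed on their 3p arms, the members' 3p reads were set beside theirs. The products with the common seed summed to 698 reads in St Hubert, 0.187% of miRNA reads, and 1973 in Zonza, 0.188%. miR-308 supplied 81.5% of these reads in St Hubert, with 569, and 81.0% in Zonza, with 1598. miR-11 supplied 11.2%, with 78 reads, and 11.5%, with 227. The members with this seed, miR-2a not among them, supplied 7.31% (5.60 to 9.48), with 51 reads, and 7.50% (6.42 to 8.75), with 148. The Zonza sums include 41 reads of miR-13b, which was not listed in St Hubert, so the family shares do not cover the same members. Most ovarian reads with the seed that defines the family thus came from miR-308 in both libraries.

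The 3p product of miR-2a, with 40 and 151 reads, is not in these sums because its deposited form starts 2 bases later. Counting only miRNAs whose dominant arm carries the seed, the sum was 692 reads in St Hubert, 0.185% of miRNA reads, and 1937 in Zonza, 0.184%. From the family only miR-2b and, in Zonza, miR-13b entered it.

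The study set a floor on the reads of the dominant arm, above 18 in St Hubert and above 50 in Zonza, for calling a miRNA expressed. All 4 members listed in St Hubert passed it, with 32 to 71 dominant reads, as did 65 of the 67 listed miRNAs. With a lowest listed total of 19 reads, above that floor, being listed in St Hubert nearly fixed this outcome. In Zonza miR-2b with 60, miR-13a with 72, miR-2c with 131 and miR-2a with 273 passed, and miR-13b with 41 did not, while 60 of the 81 listed miRNAs passed. The Zonza table goes down to 5 reads, so its count and that of St Hubert are not like counts.

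The mRNA libraries were read for genes of the pathways in which the family is known to act in other insects, from 3 lists of juvenile hormone response, cell death and Notch target genes. Each gene was taken as the contig with the highest mean FPKM (read fragments scaled by contig length and library size), and log2 ratios were computed on FPKM + 1. Contigs were found for 16 of 20 genes. Of these, 3 were at least 2-fold higher and 1 at least 2-fold lower in Zonza, against 39.7% of the 16054 contigs with a mean of at least 1 FPKM that passed 2-fold in either direction, and the median log2 ratio was -0.12 against 0.00 for all. The background counts all contigs, and each gene only its leading one. None of the genes was tested as a target.

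None of the 6 genes on the juvenile hormone response list reached 2-fold on its leading contig. Kr-h1, the miR-2 target of the cockroach, had 40.9 FPKM in St Hubert and 38.2 in Zonza, a log2 ratio of -0.09. Met, the juvenile hormone receptor, had 5.99 and 12.96 FPKM, which fell just short of 2-fold on the FPKM + 1 scale and passed it with a pseudocount of 0.1 FPKM. Its partner taiman had 3.40 and 3.76 FPKM. The transcription factor gene broad, on its leading contig of 18, had 44.3 and 39.6 FPKM, but of its 16 contigs with a mean of at least 1 FPKM 6 were at least 2-fold higher and 3 at least 2-fold lower in Zonza (median log2 ratio 0.59). E93 had 1.80 and 1.46 and ftz-f1 had 1.71 and 1.13.

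Of the cell death list, reaper, hid, grim and sickle matched no contig, so the Drosophila targets of the family are not analysed here. Ibm1, an inhibitor-of-apoptosis-binding protein, had 5.30 FPKM in St Hubert and 3.39 in Zonza, a log2 ratio of -0.52. The inhibitors of apoptosis th and Iap2 had 31.6 and 3.32 FPKM in St Hubert and 35.5 and 3.96 in Zonza, and the caspases Ice and Dredd had 66.7 and 14.2 in St Hubert and 51.7 and 11.6 in Zonza. These 5 genes all lay within 2-fold on their leading contig. Of the 3 contigs of Iap2, 1 was at least 2-fold higher in Zonza, while their summed FPKM gave a log2 ratio of 0.06.

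The remaining cell death genes passed 2-fold on their leading contig but not when their contigs were summed. The leading contig of Nc, the initiator caspase gene, was listed at 0 in St Hubert and at 9.72 FPKM in Zonza, whereas its 4 contigs summed to 12.9 and 10.2 FPKM. Apaf-1, the caspase activator, had 2.23 and 7.44 FPKM on its leading contig, a log2 ratio of 1.39, and 6.82 and 10.2 summed over 2 contigs, a log2 ratio of 0.52.

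Of the Notch targets, E(spl) had 9.06 FPKM in St Hubert and 19.7 in Zonza, a log2 ratio of 1.04 on its leading contig and 1.07 over both contigs. Hey had 5.70 and 2.08 FPKM on its leading contig, a log2 ratio of -1.12, and 7.19 and 5.44 over 3 contigs, a log2 ratio of -0.35. hairy had 2.24 and 1.74 FPKM. Of the 4 genes past 2-fold only E(spl) was also past it when its contigs were summed.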

How the data were processed

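Small RNA values were read counts for each precursor, in total and for the 5p and 3p arm, deposited unnormalised by the authors together with precursor and mature sequences. They were made with miRDeep2 and checked by the authors with its quantifier script. mRNA values were FPKM, deposited for each contig of a joint assembly of the libraries made with Trinity and quantified with RSEM, restricted by the authors to contigs with a BLAST match. The submitters' processing notes also name Bowtie. No genome build applies. Totals in supplementary tables were not used, also for miR-13b in St Hubert. Populations were taken from the sample titles. The FPKM values were labelled Belgium and Corsica and were matched to St Hubert and Zonza through the study's methods.

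Shares were computed over all miRNA reads listed for a library (373413 and 1049925) with 95% Wilson intervals, ratios of shares with exact conditional intervals, ratios between members and their changes with log-normal intervals, and differences in arm share with Newcombe intervals. Reads amplified by PCR are not independent molecules, so intervals and floors cover counting error only. A share of 0 was given the limit of 3 reads. Arm reads were compared by a two-sided Fisher exact test over 58 miRNAs with Benjamini-Hochberg adjustment, and adjusted p under 0.05 was called. TMM factors came from edgeR 4.0.16 in R 4.3.3, folds from RNAfold 2.7.2 and global alignments from Biopython 1.88, with scipy 1.17.1 for intervals and tests. Contigs needed a mean of at least 1 FPKM, with a pseudocount of 1 FPKM. The interval of the ratio of shares, the arm test and the FPKM ratio were tested on simulated data, and the other steps were not.

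The text names every member, every miRNA with the shared seed, the 3 miRNAs nearest to the summed family by ratio, the neighbours of each member in rank, and the leading contig of each listed gene. The members and lists were chosen with earlier results of these data known. Alternatives were 4 other scalings, dominant arm reads, leaving out each member, other thresholds, seeds and pseudocounts, and setting aside identical products. Counting only 5p reads, and counting the 3p reads of miR-2b for miR-2a as well, were chosen after seeing the data.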

Additional observations from a re-analysis of the deposited data

How the results depend on the processing

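The ratio of the summed family, 1.02 on all miRNA reads, was 1.38 on totals without miR-989, 1.36 with TMM factors, 1.32 with median-of-ratios size factors and 0.755 without miR-2a. The number of miRNAs past 2-fold was 14 on all miRNA reads, 26 at 1.5-fold, and 5 without miR-989, with TMM factors and with size factors alike. All reads of the miRNAs with the seed on either arm, those of the arm without it included, were 0.215% of the total for St Hubert and 0.208% for Zonza. Of the listed mRNA genes 4 were past 2-fold, 5 with a pseudocount of 0.1 FPKM, Met being added, and 1 with a pseudocount of 5 FPKM, which shrinks the ratios of low contigs by construction. Of all results and alternatives 61 were unchanged within counting error or the threshold's count and 29 moved. Some of the 61 could not move. In 9 of them identical products were set aside, which the family lacked, and 2 used a read floor that every miRNA met. A further 15 scaled on the miRNAs listed in both libraries, whose totals were close to all miRNA reads. The interval of the summed family included 1 on all miRNA reads, lay above 1 under those 3 scalings and lay below 1 without miR-2a. The number of miRNAs called for arm use was 3. All 58 miRNAs had at least 50 reads over both libraries, so that floor could not change the count. No paired analysis was possible because each population has 1 library of each kind and the labels give no replicate numbers. For the same reason no library could be left out. With 37 to 111 reads per member in St Hubert, depth limited the ratios of single members most in that library.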
